A study of Mus musculus with 6 samples.

Results

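The guidance genes examined here are the semaphorins with their plexin and neuropilin receptors, and the ephrins with their Eph receptors, in thyroid organoids made from mouse embryonic stem cells with an inducible Braf V637E. Members were taken from the count table by symbol alone: Sema with a digit and a letter, Plxn with a letter and an optional digit, Nrp1, Nrp2, and Epha, Ephb, Efna or Efnb with digits. This gave 53 of the 25239 genes listed. They are 20 semaphorins (7 secreted class 3 members and 13 membrane-bound ones), 9 plexins, 2 neuropilins, 8 ephrins (5 of type A and 3 of type B) and 14 Eph receptors (9 EphA and 5 EphB). The filter on low counts kept 52 of them, and Epha6, with 0 to 2 counts per library, was not tested.

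Semaphorins are secreted or membrane-bound ligands, most of which act through plexins. Class 3 semaphorins usually need a neuropilin as co-receptor, and Sema3e can bind Plxnd1 without it. Plexins act on small GTPases and thereby on actin and on integrin adhesion. Ephrins sit in the membrane, type A by a lipid anchor and type B by a transmembrane segment, and bind Eph receptor tyrosine kinases on neighbouring cells, so that both cells can signal. In epithelia these families take part in cell sorting, boundary formation and cell spreading, and in vessels ephrin-B2 is known as an arterial and EphB4 as a venous marker.

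All organoids came from a clonal G4 RosaLuc stem cell line with a TRE-Nkx2-1-Pax8 cassette, through which doxycycline induces both thyroid transcription factors, and with bTg-NES-BrafV637E-ERT2, a fusion that 4-hydroxytamoxifen (4OHT) activates. Every group had 5 days of doxycycline at 1 µg/ml, 2 weeks of 8-Br-cAMP and a follicle enrichment step, and was collected at day 31. The cAMP group stayed in 8-Br-cAMP with ethanol as vehicle. The 4OHT group also had 4OHT at 1 µM, and the PD+LY group had the same 4OHT together with 250 nM PD0325901, which inhibits MEK, and 5 µM LY204002, which inhibits PI3K. For RNA the protocols state 5 days in 4OHT, yet for inhibitors 4 days in 4OHT and then 3 more with the drugs added, so PD+LY and 4OHT may also differ in their days of 4OHT, which cannot be told apart from the inhibitors. A bovine thyroglobulin (bTg) promoter drives the fusion, which limits Braf V637E to cells that use that promoter, and cells of other types remain after enrichment.

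Each group held 2 libraries of pooled wells, with 16060341 and 20533878 counts in cAMP, 14898409 and 18246077 in 4OHT, and 19508401 and 20637959 in PD+LY. The 53 guidance genes took 0.150 to 0.170% of all counts, and a single count was worth 0.0486 to 0.0667 CPM, the unit of counts scaled by library size. With 2 libraries against 2, an exact permutation test of a single gene cannot go below p = 0.3333, so tests come from edgeR's quasi-likelihood model over 15256 genes with Benjamini-Hochberg adjustment. Below, "passed" means an adjusted p under 0.05, and DEG means passed with at least a 2-fold change. The 3 comparisons share libraries and are not independent of each other. No source says that replicates came from separate differentiations, so p-values measure only the spread between these libraries.

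The thyroid label was met by Tg, the thyroid hormone precursor, at 1566 and 1022 CPM in cAMP, 514 and 693 in 4OHT, and 1870 and 907 in PD+LY. Of 12 thyroid follicular markers 11 were tested, and Slc26a4 was under the filter with 0 to 5 counts. Markers of other cells were also present, and none on the lists was at 0 in every library. The 8 pluripotency markers summed to 3402 to 4387 CPM over the 6 libraries, with Dppa5a as the most abundant. The 11 mesenchymal markers, led by Col1a1, Col1a2 and Col3a1, summed to 1197 and 1301 CPM in cAMP, 2248 and 2365 in 4OHT, and 4866 and 4124 in PD+LY. That list did not move as one, since in PD+LY against 4OHT 5 of its 11 members, all tested, rose, beside 10.7% of all genes. Pdgfrb (log2 -1.26, edgeR adjusted p = 0.000281) and Twist1 (log2 -1.03, edgeR adjusted p = 0.0439) fell, beside 12.1% of all genes. The 12 neural markers, led by Stmn2 in cAMP and 4OHT and by Nes in PD+LY, summed to 192 and 171 CPM in cAMP, 155 and 154 in 4OHT, and 121 and 133 in PD+LY. In PD+LY against 4OHT Stmn2 (log2 -1.43) and Elavl3 (log2 -1.96) fell, beside 12.1% of all genes, but Pax6 (log2 0.65) and Nes (log2 0.52) rose, beside 10.7%. The median over the 11 tested neural markers was 0.53, beside 0.01 for all genes. Of these markers 8 were positive, beside 7749 of all 15256 genes. In such bulk RNA, fewer cells of a type and less RNA per cell cannot be told apart.

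Among 13 endothelial markers the most abundant was Pecam1, which mouse embryonic stem cells also express, at 135 and 128 CPM in cAMP, 171 and 168 in 4OHT, and 148 and 155 in PD+LY. The list summed to 265 and 271 CPM in cAMP, 274 and 278 in 4OHT, and 237 and 236 in PD+LY, while Emcn stayed under the filter. Although the sum hardly moved, 5 of its 12 tested members were DEGs that fell in 4OHT against cAMP, beside 1.51% of all genes. They include the VEGF receptor Kdr, at 9.94 and 10.7 CPM in cAMP, 1.53 and 2.58 in 4OHT, and 3.82 and 2.77 in PD+LY. The junction cadherin Cdh5 was at 8.37 and 7.55 CPM in cAMP, 2.87 and 2.85 in 4OHT, and 4.38 and 3.65 in PD+LY. The fall of Kdr in 4OHT against cAMP was called with any library left out, whereas that of Cdh5 was lost without either 4OHT library (log2 -1.47 each). In PD+LY against cAMP 8 of the 12 tested members passed, all lower, beside 13.7% of all genes. Pecam1 went the other way in 4OHT against cAMP, with a rise that passed (log2 0.36, edgeR adjusted p = 0.0271). These values stand beside the guidance genes that vessels also use, such as Efnb2, and the part of vessel cells in those results was not tested.

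Levels were compared between genes per kilobase of exon, and the leading genes are those with the highest mean over all 6 libraries. Those of the plexins summed to 77.9 and 71 CPM per kb in cAMP, 77.3 and 77.7 in 4OHT, and 64.8 and 59.6 in PD+LY, and Plxna1 at a mean of 30.7 and Plxnb2 at 27.9 CPM per kb made up most of it. EphB receptors summed to 45.1 to 54.6 CPM per kb, with Ephb4 (23.4) and Ephb3 (18.8) in front. EphA receptors summed to 22.3 to 27.7, led by Epha2 at 14.7. Membrane-bound semaphorins reached 52.1 to 60, led by Sema4b (12.9) and Sema4c (11.9), whereas the secreted class 3 members summed to only 8.22 to 10.6, led by Sema3f at 3.40. Ephrin-A ligands summed to 22.5 to 27, led by Efna1 at 9.53, and the leading neuropilin was Nrp2 at 2.29.

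Dividing by the longest transcript instead of all exons keeps Plxna1 and Plxnb2 as the top pair but puts Plxnb2 first at 33.1 CPM per kb, puts Ephb3 (26.3) ahead of Ephb4, and puts Nrp1 (4.44) ahead of Nrp2. The order of these close neighbours therefore depends on the length used. The leading gene also changed with the group, since Sema4c stood above Sema4b in cAMP (12.8 against 10.4 CPM per kb), Ephb3 above Ephb4 in 4OHT (20.4 against 20.1), and in PD+LY Efna4 above Efna1 (7.79 against 7.28) and Sema3b above Sema3f (3.32 against 2.71). The order of Efna4 and Efna1 in PD+LY depends on the length as well and turns with the longest transcript. For Efna1 that is 1632 bases beside 1830 of exon, and for Efna4 both are 1599. The make-up of several roles also differed between groups. Epha2 held 62 and 62.5% of the EphA level in cAMP, 67.4 and 67.6% in 4OHT, and 41.5 and 51.2% in PD+LY, where Epha4 stood at 9.26 CPM per kb beside 10.4 for Epha2. Among ephrin-B ligands Efnb2 led in cAMP at 6.61 CPM per kb, ahead of Efnb1 at 5.53, but stood behind it in 4OHT at 2.39 against 5.79. Ephb4 held 42 to 45.6% of the EphB level in cAMP and 4OHT and 50.4 and 57% in PD+LY. Plxna1 held 39.2 to 42.7% of the plexin level in cAMP and 4OHT and 47.4 and 47.1% in PD+LY. The share of Sema4b among membrane-bound semaphorins was 18.8 and 20% in cAMP, 21.4 and 23.7% in 4OHT, and 25.5 and 31.7% in PD+LY, and Nrp2 held 58.3 to 62% of the neuropilin level in cAMP and 4OHT and 51 and 51.8% in PD+LY. For each of these last 4 shares the PD+LY libraries did not overlap the others.

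**Figure D1:**
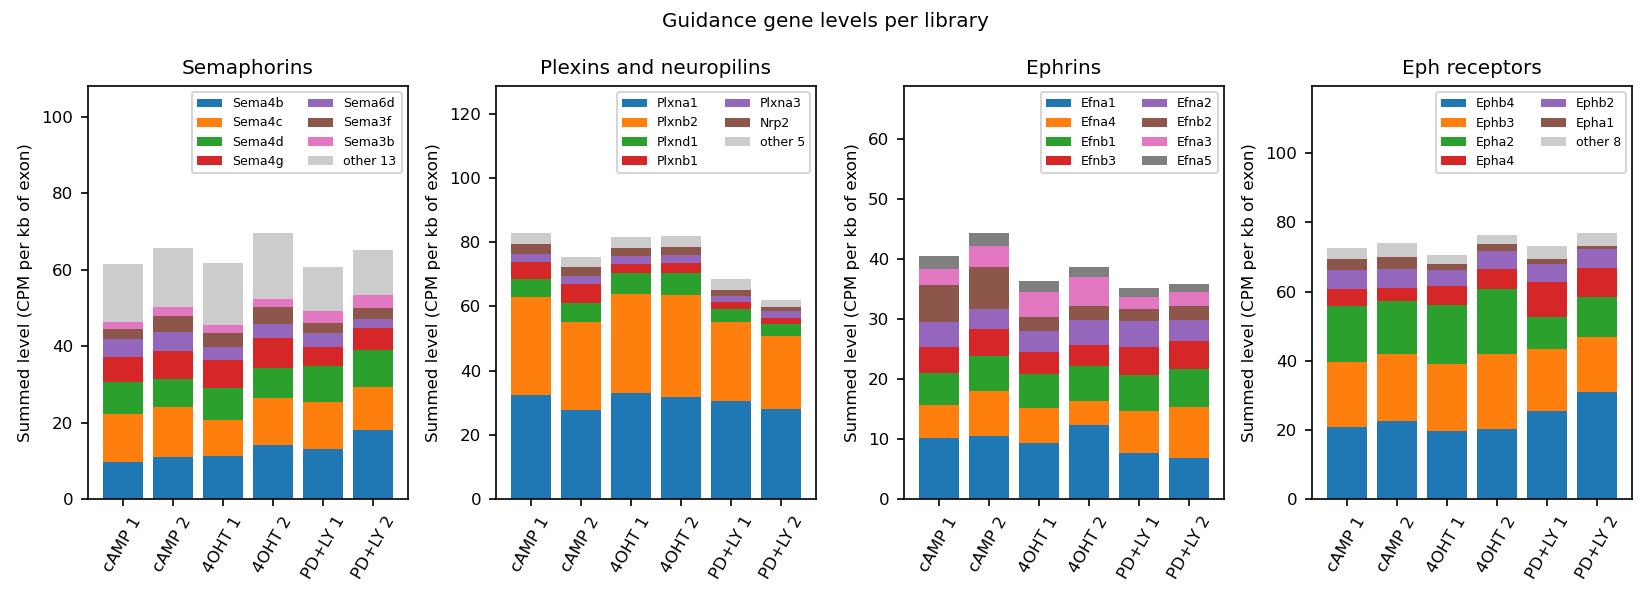
Stacked bars give the level per kb of exon (CPM per kb) in each of the 6 libraries for semaphorins, plexins with neuropilins, ephrins and Eph receptors, the most abundant genes in colour and the rest in grey. The Efnb2 segment is wide in both cAMP libraries and narrow in the other 4, and the Epha4 segment is widest in both PD+LY libraries.

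The first comparison, 4OHT against cAMP, asks what adding 4OHT to activate Braf V637E did. Every library came from the line with the fusion, so effects of 4OHT itself cannot be told apart from those of Braf V637E. The same holds for PD+LY against cAMP. Between 4OHT and cAMP 6 of the 52 tested members passed, where 8.39% of all genes tested passed. Sema7a rose, beside 4.04% of all genes that rose, and Efnb2, Sema3e, Sema6a, Plxnb1 and Epha7 fell, beside 4.35%. Of these Efnb2, Sema3e and Sema6a were DEGs, all lower, beside 1.51% of all genes that were lower and 2.67% in either direction. The median log2 fold change of the members was 0.02, beside 0.00 for all genes tested. Membrane-bound semaphorins had 1 member up and 1 down among 13, class 3 semaphorins 1 down among 7, plexins 1 down among 9, ephrin-B ligands 1 down among 3 and EphA receptors 1 down among 8 tested.

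In the second comparison, which asks what MEK and PI3K inhibition did to Braf V637E organoids, 18 members passed between PD+LY and 4OHT, with 22.7% of all genes passing. The 5 that rose were Epha4, Epha7, Ephb4, Ephb6 and Sema3b, beside 10.7% of all genes that rose. The 13 that fell were Efna1, Efna3, Epha2, Nrp2, Plxnb1, Plxnb2, Plxnb3, Plxnd1, Sema3f, Sema3g, Sema4a, Sema4g and Sema7a, beside 12.1% of all genes that fell. By side, the semaphorins with their receptors had 1 member up and 10 down among 31, and the ephrins and Ephs had 4 up, all of them receptors, and 3 down among 21. The 5 DEGs, Sema7a, Sema4a, Sema3g, Plxnb3 and Efna3, were all lower. Of all genes 7.26% were DEGs, with 4.90% lower and 2.35% higher. The median was -0.16 for the members and 0.01 for all genes.

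In the third comparison, inhibitor-treated against never-induced organoids, 22 members passed between PD+LY and cAMP and 25.7% of all genes passed. Epha4, Ephb4, Sema3b, Sema4b and Sema5a rose, beside 12.1% of all genes, and 17 fell, beside 13.7%. There were 10 DEGs, beside 9.24% of all genes. Epha4 was the DEG that was higher in PD+LY, and the 9 lower ones, beside 6.24% of all genes, were Efnb2, Epha1, Plxnb1, Plxnc1, Sema3e, Sema3g, Sema4a, Sema6a and Sema7a. The median was -0.33 for the members and 0.00 for all genes. Over the 3 comparisons 27 members passed at least once, beside 35.7% of all genes, 12 were DEGs at least once, beside 13.0%, and 25 of the tested members never passed.

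**Figure D2:**
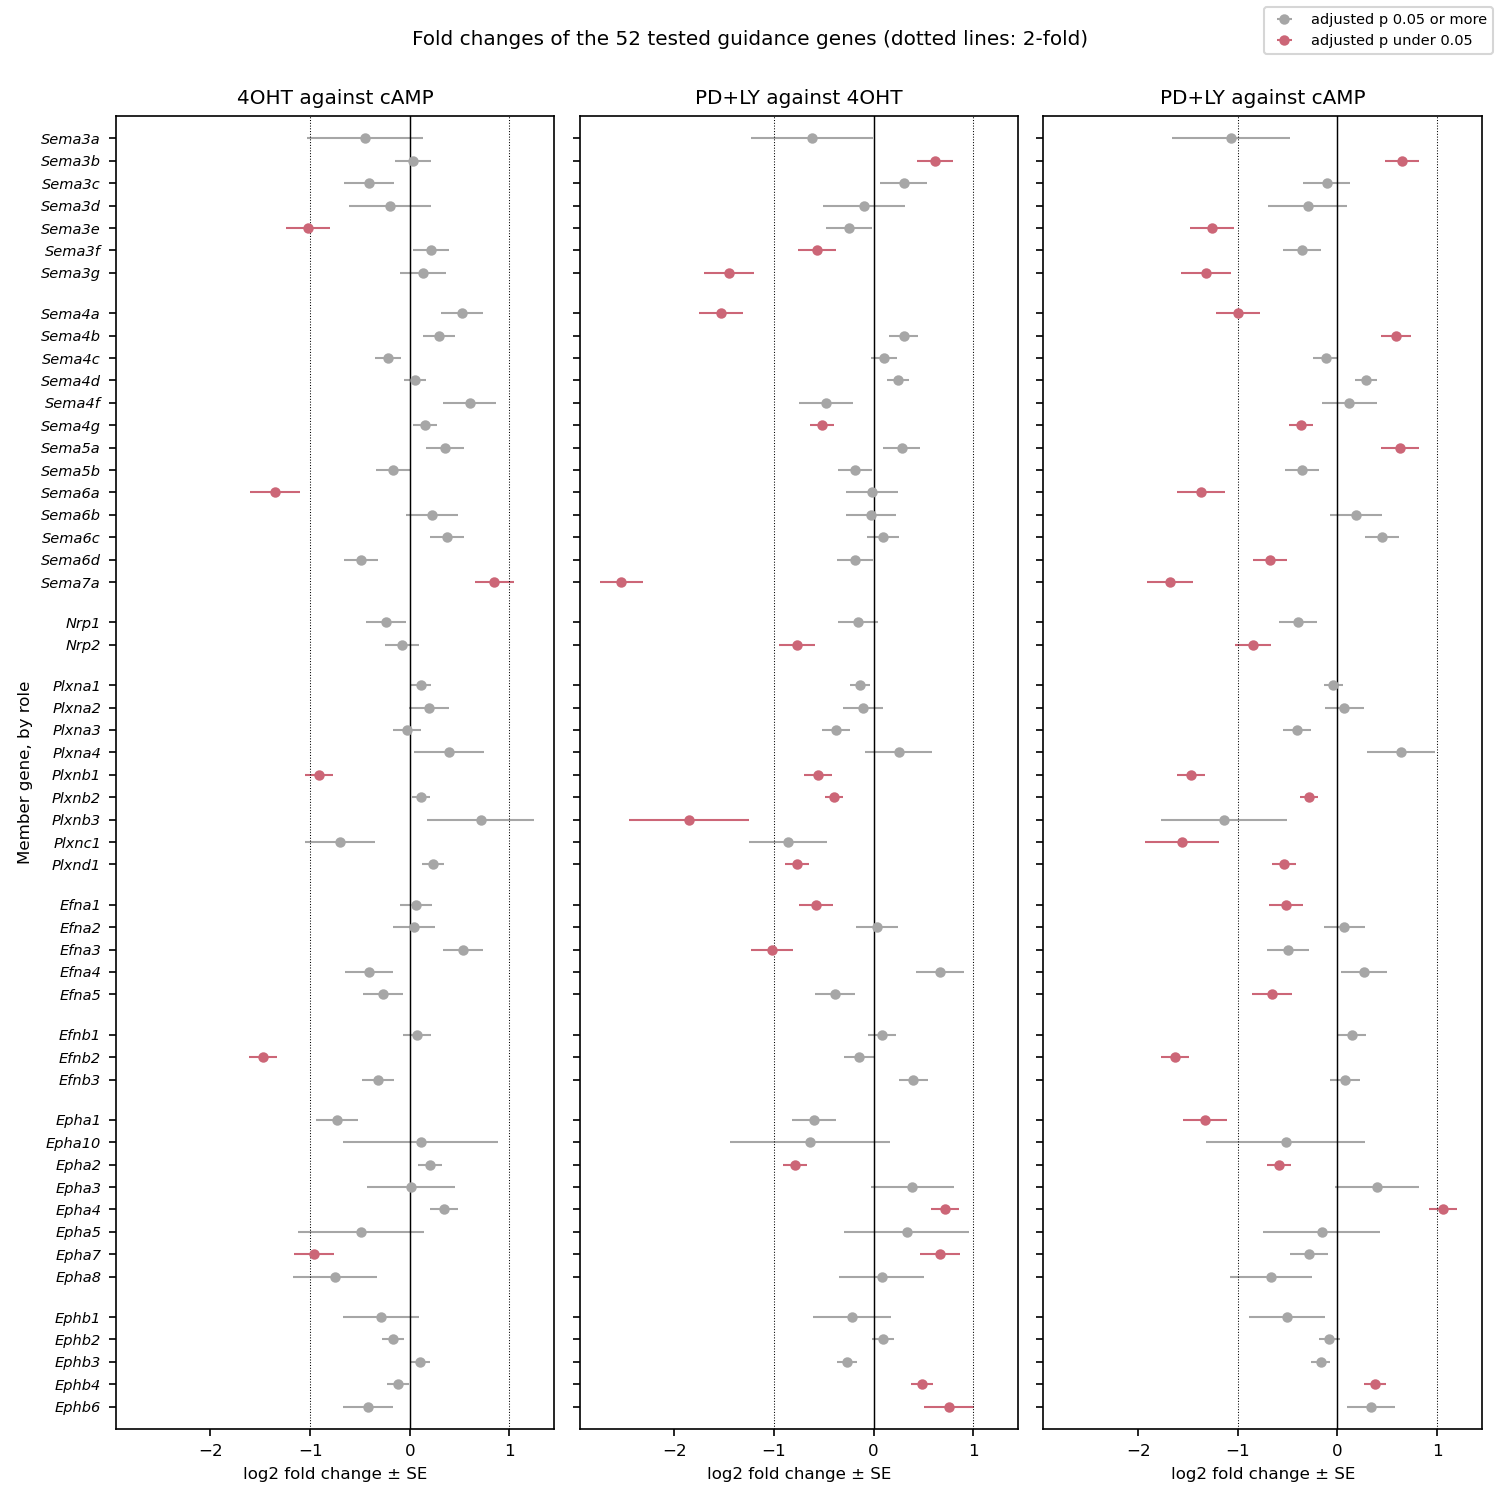
Points give the log2 fold change and bars its SE, derived from the edgeR F test, for the 52 tested members, ordered by role, in the 3 comparisons. Red marks an adjusted p under 0.05 and dotted lines are at 2-fold. The middle panel has Sema7a farthest to the left at -2.53, and none of its red points on the right reaches 2-fold.

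Efnb2 encodes ephrin-B2, a transmembrane ligand of EphB receptors and of EphA4 (ENSMUSG00000001300.16, chr8:8617434-8661242 of GRCm38, minus strand). It was at 42 and 48.7 CPM in the cAMP libraries, 16.2 and 16.5 in 4OHT, and 13.5 and 15.9 in PD+LY. Both cAMP libraries lay far above the other 4, which sat close together. Efnb2 fell 2.77-fold in 4OHT against cAMP (log2 fold change -1.47, SE 0.14, edgeR adjusted p = 0.000119) and 3.09-fold in PD+LY against cAMP (-1.63, SE 0.14, edgeR adjusted p = 1.3e-05). Between PD+LY and 4OHT the log2 difference was -0.15 with an SE of 0.15 (edgeR adjusted p = 0.485), so its level with the inhibitors remained near the 4OHT level. Leaving out any single library kept both calls, with log2 fold changes of -1.57 to -1.35 and of -1.75 to -1.50.

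The 250 bases before the RefSeq start of Efnb2 are shown because it had the lowest adjusted p of the members in 4OHT against cAMP and held none of the motifs searched (chr8:8661243-8661492 of GRCm38.p6, minus strand, written 5′ to 3′ along the gene, all in lower case since no motif matched).
Efnb2 promoter: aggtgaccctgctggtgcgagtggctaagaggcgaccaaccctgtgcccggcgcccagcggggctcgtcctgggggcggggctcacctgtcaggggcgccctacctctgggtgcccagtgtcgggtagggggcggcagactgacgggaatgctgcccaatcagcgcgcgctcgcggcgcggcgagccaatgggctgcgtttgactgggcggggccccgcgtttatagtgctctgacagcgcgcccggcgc

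The other ephrin-B genes did not pass in any comparison. Efnb1, a ligand of EphB2 and EphB3, lay between 18.1 and 21.4 CPM over all 6 libraries. Efnb3 was at 14 and 14.2 CPM in cAMP, 11.5 and 11 in 4OHT, and 15 and 14.9 in PD+LY, lowest in both 4OHT libraries without passing (log2 0.40, SE 0.15, edgeR adjusted p = 0.0801 for PD+LY against 4OHT). The summed ephrin-B level was 15.7 and 17.4 CPM per kb in cAMP, 11.6 and 11.8 in 4OHT, and 12.7 and 13.2 in PD+LY.

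Among the lipid-anchored ephrin-A ligands, none passed between 4OHT and cAMP. Efna3 (ENSMUSG00000028039.11, chr3:89313899-89322965, minus strand) was at 6.6 and 8.48 CPM in cAMP, 10.1 and 11.7 in 4OHT, and 5.09 and 5.64 in PD+LY. The groups did not overlap, with 4OHT highest and PD+LY lowest. It fell 2.03-fold in PD+LY against 4OHT (log2 -1.02, SE 0.21, edgeR adjusted p = 0.00468), a call lost without 4OHT replicate 2 (log2 -0.91, edgeR adjusted p = 0.0749). The gene Gm15998 on the opposite strand covers 14.1% of its exon length, and reads were counted without strand, so the reads of both cannot be told apart there.

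Efna1, the main ligand of EphA2 and the ephrin with the highest level per kb in cAMP and 4OHT, was at 18.8 and 19.4 CPM in cAMP, 17.1 and 22.7 in 4OHT, and 14 and 12.6 in PD+LY. Both PD+LY libraries lay below the others. It fell in PD+LY against 4OHT by 0.58 on the log2 scale (SE 0.17, edgeR adjusted p = 0.0269) and against cAMP by 0.52 (SE 0.17, edgeR adjusted p = 0.0385). The call against 4OHT was lost without 4OHT replicate 2 (-0.35) or PD+LY replicate 2 (-0.51), and the call against cAMP with 4 of the 6 libraries left out in turn, at -0.54 without cAMP replicate 1, -0.49 without cAMP replicate 2, -0.51 without 4OHT replicate 2 and -0.45 without PD+LY replicate 2. With only the groups compared its adjusted p against cAMP was 0.0505. Efna5 fell in PD+LY against cAMP (log2 -0.66, SE 0.20, edgeR adjusted p = 0.0311), at 8.43 and 8.87 CPM in cAMP and 5.96 and 5.01 in PD+LY. That call held only without PD+LY replicate 1, and the log2 fold change was -0.69 and -0.61 without either cAMP replicate, -0.65 without either 4OHT replicate and -0.54 without PD+LY replicate 2. DESeq2 put it at an adjusted p of 0.0664, and the fit of only the groups compared at 0.0625. Efna2 and Efna4 did not pass in any comparison. Efna4 was at 9.47 and 6.25 CPM in 4OHT and 11.2 and 13.7 in PD+LY (log2 0.67, SE 0.24, edgeR adjusted p = 0.0585).

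Epha4 encodes a receptor that binds ligands of both ephrin types (ENSMUSG00000026235.14, chr1:77367185-77515088, minus strand). Its levels were 39.9 and 31.8 CPM in cAMP, 44 and 46.2 in 4OHT, and 81.5 and 67.6 in PD+LY. The 3 groups did not overlap, with PD+LY highest. Epha4 rose in PD+LY against 4OHT (1.65-fold, log2 0.72, SE 0.14, edgeR adjusted p = 0.00323) and against cAMP (2.08-fold, log2 1.06, SE 0.14, edgeR adjusted p = 0.000209). Both calls held with any library left out, at 0.58 to 0.85 and at 0.91 to 1.23. The second dropped under 2-fold without cAMP replicate 2 (0.91) or PD+LY replicate 1 (0.92). The difference between 4OHT and cAMP was 0.34 (SE 0.14, edgeR adjusted p = 0.169).

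The 120 bases before the RefSeq start of Epha4 are shown because they hold a CRE core (TGACGT, the element that CREB reads) in organoids kept in a cAMP analogue. Capitals mark it as read on the opposite strand, beginning 58 bases before the start (chr1:77515089-77515208 of GRCm38.p6, minus strand).
Epha4 promoter: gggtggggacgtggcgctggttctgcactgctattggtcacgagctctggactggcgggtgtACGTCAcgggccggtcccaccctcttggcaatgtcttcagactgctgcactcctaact

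Epha2, a receptor with roles in epithelial junctions and migration, had the highest mean level per kb of exon of the EphA receptors in each group. It was at 74.9 and 71.7 CPM in cAMP, 80.5 and 87.4 in 4OHT, and 43.2 and 54 in PD+LY. Both PD+LY libraries lay well below the other 4. Epha2 fell 1.73-fold in PD+LY against 4OHT (log2 -0.79, SE 0.12, edgeR adjusted p = 0.000922) and 1.51-fold against cAMP (-0.59, SE 0.12, edgeR adjusted p = 0.00421), and leaving out any library kept both calls. Epha1, an epithelial Eph receptor (ENSMUSG00000029859.6, chr6:42358487-42373268, minus strand), was at 12.4 and 13.3 CPM in cAMP, 6.87 and 8.5 in 4OHT, and 5.96 and 4.23 in PD+LY. Its groups stepped down without overlap. Epha1 fell 2.52-fold in PD+LY against cAMP (log2 -1.33, SE 0.22, edgeR adjusted p = 0.000928). Between 4OHT and cAMP it stood at -0.73 (SE 0.21, edgeR adjusted p = 0.0538). That difference passed without the count filter (adjusted p = 0.0078), with those groups alone (adjusted p = 0.0166) and with a replicate block (adjusted p = 0.0192). Between PD+LY and 4OHT it stood at -0.60 (SE 0.22, edgeR adjusted p = 0.0735). That difference passed without the count filter (adjusted p = 0.0383), with a replicate block (adjusted p = 0.0427) and without PD+LY replicate 1 (-0.87). It was -0.37 without PD+LY replicate 2. The difference between 4OHT and cAMP also passed without PD+LY replicate 1 (adjusted p = 0.0183) or 2 (adjusted p = 0.0182), at the same log2 value. The gene Zyx on the opposite strand covers 6% of its exon length.

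Epha7 moved in the opposite way in the comparisons that share the 4OHT libraries, at 10.6 and 11 CPM in cAMP, 5.87 and 5.27 in 4OHT, and 8.05 and 9.58 in PD+LY. Both 4OHT libraries were lowest. It fell in 4OHT against cAMP (log2 -0.96, SE 0.20, edgeR adjusted p = 0.0124) and rose in PD+LY against 4OHT (0.67, SE 0.20, edgeR adjusted p = 0.0307). The fall was no longer called without any of the 4 libraries compared, at -0.98 and -0.93 without cAMP replicate 1 or 2 and -1.03 and -0.88 without 4OHT replicate 1 or 2. The rise was no longer called without 4OHT replicate 1 (0.74), 4OHT replicate 2 (0.59) or PD+LY replicate 2 (0.53), and DESeq2 put it at an adjusted p of 0.055. Epha3, Epha5, Epha8 and Epha10 stayed at 2.39 CPM or less in every library and never passed.

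Of the EphB receptors, Ephb4, the receptor that prefers ephrin-B2, was at 97.3 and 105 CPM in cAMP, 91.8 and 94.9 in 4OHT, and 119 and 144 in PD+LY. Both PD+LY libraries were highest. It rose in PD+LY against 4OHT (log2 0.49, SE 0.11, edgeR adjusted p = 0.00787) and against cAMP (0.38, SE 0.11, edgeR adjusted p = 0.0245). The call against 4OHT was lost without 4OHT replicate 1 (0.47) or replicate 2 (0.53), and that against cAMP without cAMP replicate 1 (0.33), cAMP replicate 2 (0.44) or PD+LY replicate 2 (0.23). Ephb6, a receptor without kinase activity, was at 4.94 and 3.68 CPM in 4OHT and 7.28 and 7.25 in PD+LY. It rose in PD+LY against 4OHT (log2 0.76, SE 0.25, edgeR adjusted p = 0.0469), but the call was lost without 4OHT replicate 1 (0.98), 4OHT replicate 2 (0.56), PD+LY replicate 1 (0.76) or PD+LY replicate 2 (0.77), with DESeq2 (adjusted p = 0.0764), and with at least 10 counts required in every library (adjusted p = 0.0505). Ephb3, at 106 to 143 CPM, Ephb2, at 56.4 to 68.7, and Ephb1, at 1.47 to 3.29, did not pass in any comparison.

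**Figure D3:**
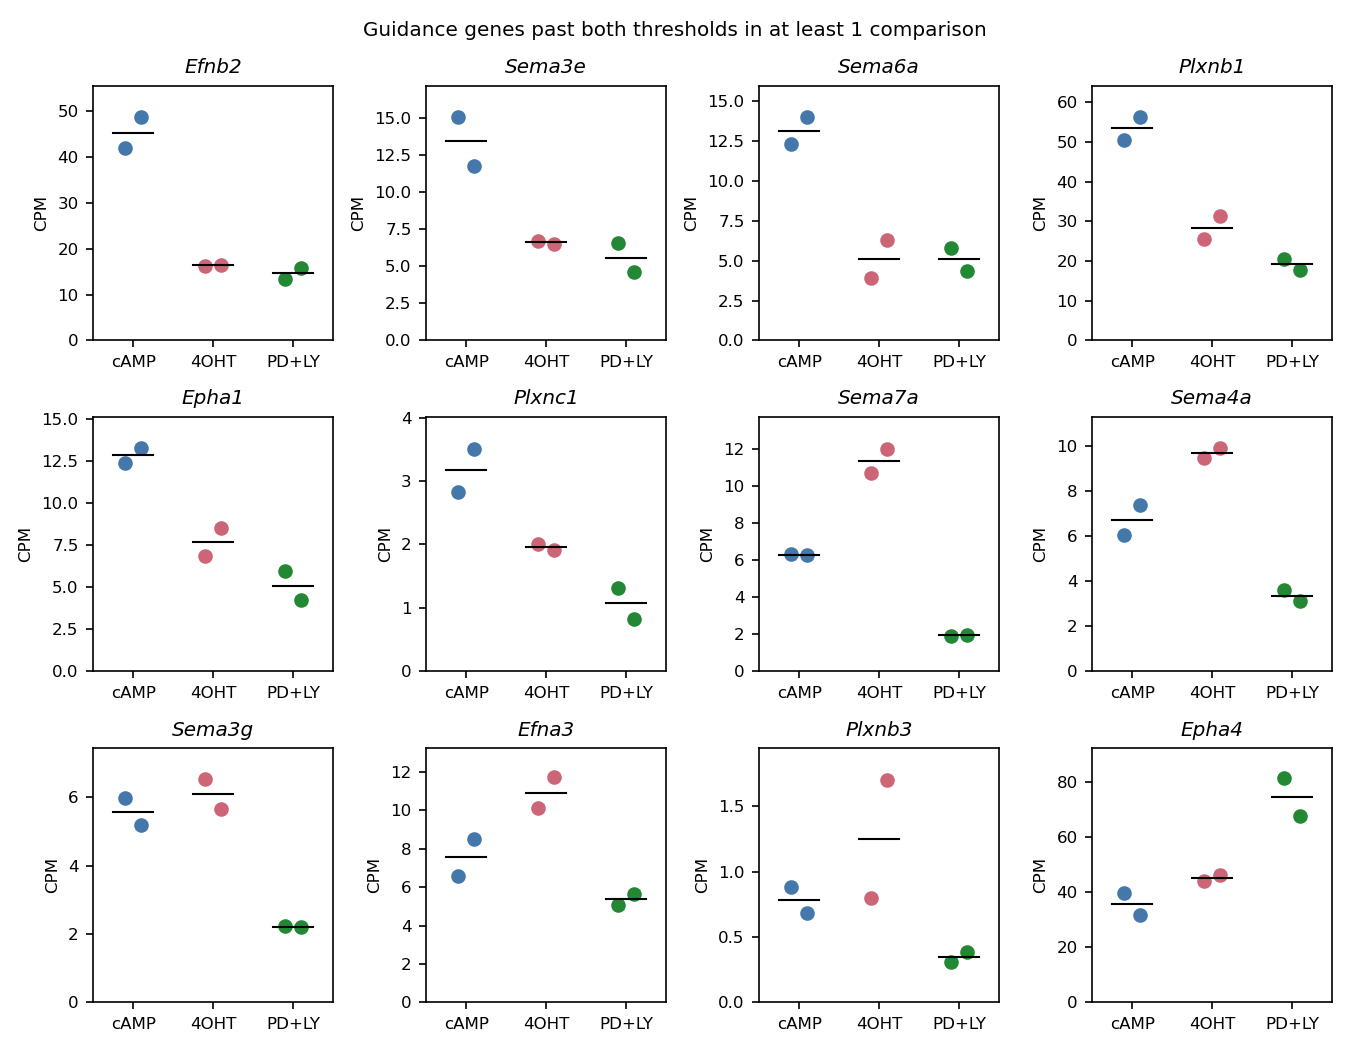
Each panel plots the CPM of 1 of the 12 members that were DEGs in at least 1 comparison, with a point per library, a bar at the group mean and its own vertical axis from 0. Efnb2, Sema3e and Sema6a are high in cAMP alone, Sema7a and Sema4a peak in 4OHT and are lowest in PD+LY, and Epha4 is highest in PD+LY.

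Sema7a encodes a lipid-anchored semaphorin that binds Plxnc1 and integrins (ENSMUSG00000038264.8, chr9:57940112-57962865, plus strand). It was at 6.35 and 6.29 CPM in cAMP, 10.7 and 12 in 4OHT, and 1.94 and 1.99 in PD+LY. The groups were far apart and replicates close together. Sema7a fell 5.77-fold in PD+LY against 4OHT (log2 -2.53, SE 0.22, edgeR adjusted p = 2.31e-05) and 3.21-fold against cAMP (-1.68, SE 0.23, edgeR adjusted p = 0.000258), both kept with any library left out. Its rise in 4OHT against cAMP was 1.80-fold (log2 0.85, SE 0.20, edgeR adjusted p = 0.023), and this call was lost without cAMP replicate 1 (0.85) or 2 (0.84) or 4OHT replicate 1 (0.93) or 2 (0.77).

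The 250 bases before the RefSeq start of Sema7a are shown because it had the largest fold change of the members in PD+LY against 4OHT (chr9:57939862-57940111 of GRCm38.p6, plus strand). None of the motifs searched was found in them, so all letters are in lower case.
Sema7a promoter: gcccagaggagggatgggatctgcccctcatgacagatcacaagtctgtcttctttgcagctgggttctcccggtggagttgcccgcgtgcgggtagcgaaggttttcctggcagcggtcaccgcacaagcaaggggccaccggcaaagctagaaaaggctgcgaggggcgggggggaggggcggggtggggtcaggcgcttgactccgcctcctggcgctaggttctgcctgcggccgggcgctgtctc

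Sema4a, a transmembrane semaphorin known from immune cells and angiogenesis (ENSMUSG00000028064.17, chr3:88435959-88461182, minus strand), was at 6.04 and 7.41 CPM in cAMP, 9.47 and 9.93 in 4OHT, and 3.62 and 3.11 in PD+LY. The order of the groups was that of Sema7a, without overlap. It fell 2.88-fold in PD+LY against 4OHT (log2 -1.53, SE 0.22, edgeR adjusted p = 0.000604). Against cAMP it fell 2-fold (-1.0, SE 0.22, edgeR adjusted p = 0.00638), at the edge of the fold threshold, a call lost without cAMP replicate 2 (-0.83). Between 4OHT and cAMP the difference was 0.52 (SE 0.21, edgeR adjusted p = 0.149).

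Sema6a, a transmembrane ligand of class A plexins (ENSMUSG00000019647.16), was at 12.3 and 14 CPM in cAMP, 3.94 and 6.31 in 4OHT, and 5.81 and 4.38 in PD+LY. Both cAMP libraries stood apart, and the other groups overlapped. Sema6a fell 2.55-fold in 4OHT against cAMP (log2 -1.35, SE 0.25, edgeR adjusted p = 0.007) and 2.59-fold in PD+LY against cAMP (-1.37, SE 0.24, edgeR adjusted p = 0.00162). The fall in 4OHT was no longer called without 4OHT replicate 1 (-1.05, edgeR adjusted p = 0.111). Between PD+LY and 4OHT its log2 difference was -0.02 with an SE of 0.26.

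Of the other membrane-bound semaphorins, Sema4b was at 55.6 and 62 CPM in cAMP, 63.3 and 80.3 in 4OHT, and 74.9 and 102 in PD+LY. It rose in PD+LY against cAMP (log2 0.59, SE 0.15, edgeR adjusted p = 0.0156), and the call was lost without cAMP replicate 1 (0.51) or PD+LY replicate 2 (0.35). Sema5a, with thrombospondin repeats, rose in the same comparison (0.63, SE 0.19, edgeR adjusted p = 0.0284) from 12.1 and 9.02 CPM to 17.8 and 14.7. Without cAMP replicate 2 it was at 0.43, without PD+LY replicate 1 at 0.49 and without either 4OHT replicate at 0.64, and the call was lost each time, as it was with only the groups compared (adjusted p = 0.0542).

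Sema4g fell in PD+LY against 4OHT (log2 -0.52, SE 0.12, edgeR adjusted p = 0.00895) and against cAMP (-0.37, SE 0.12, edgeR adjusted p = 0.0389), with 56.2 and 63.5 CPM in cAMP, 64 and 68.6 in 4OHT, and 43.1 and 49.6 in PD+LY. Against 4OHT the call was lost without 4OHT replicate 2 (-0.46), and against cAMP it held only without PD+LY replicate 2, at -0.45 and -0.27 without cAMP replicate 1 or 2, -0.36 without either 4OHT replicate and -0.27 without PD+LY replicate 1, and it was lost with only the groups compared (adjusted p = 0.0837). Sema6d, a ligand of Plxna1, was at 49.1 and 52.8 CPM in cAMP, 34.8 and 38 in 4OHT, and 38.8 and 25 in PD+LY, and fell in PD+LY against cAMP (log2 -0.68, SE 0.17, edgeR adjusted p = 0.0137), a call lost without cAMP replicate 2 (-0.61). Its value was -1.03 without PD+LY replicate 1 and -0.40 without PD+LY replicate 2. The remaining 6, Sema4c, Sema4d, Sema4f, Sema5b, Sema6b and Sema6c, never passed. Sema4d, the ligand of Plxnb1, lay between 55.7 and 75.3 CPM.

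Among the secreted class 3 semaphorins, Sema3e, which repels vessels and axons through Plxnd1 (ENSMUSG00000063531.7, chr5:14025276-14256689, plus strand), was at 15.1 and 11.8 CPM in cAMP, 6.74 and 6.53 in 4OHT, and 6.57 and 4.62 in PD+LY. Both cAMP libraries were highest. It fell 2.03-fold in 4OHT against cAMP (log2 -1.02, SE 0.22, edgeR adjusted p = 0.0158) and 2.40-fold in PD+LY against cAMP (-1.26, SE 0.22, edgeR adjusted p = 0.00146). In 4OHT against cAMP the call was lost without cAMP replicate 1 (-0.84) or without 4OHT replicate 1 (-1.03) or 2 (-0.99), and in PD+LY against cAMP it held with any library left out.

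Sema3g, a ligand that signals with Nrp2 (ENSMUSG00000021904.6, chr14:31217860-31230352, plus strand), was at 5.98 and 5.17 CPM in cAMP, 6.54 and 5.65 in 4OHT, and 2.24 and 2.19 in PD+LY. The first groups overlapped and both PD+LY libraries lay below them. Sema3g fell 2.74-fold in PD+LY against 4OHT (log2 -1.45, SE 0.25, edgeR adjusted p = 0.00183) and 2.5-fold against cAMP (-1.32, SE 0.25, edgeR adjusted p = 0.00259), and leaving out any library kept both calls.

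Sema3b went the other way from Sema3g, at 8.81 and 11.4 CPM in cAMP, 10.3 and 10.4 in 4OHT, and 15.4 and 16.3 in PD+LY. It rose in PD+LY against 4OHT (log2 0.62, SE 0.18, edgeR adjusted p = 0.0257) and against cAMP (0.65, SE 0.17, edgeR adjusted p = 0.0175). Against 4OHT this call was lost without 4OHT replicate 1 (0.61), 4OHT replicate 2 (0.63) or PD+LY replicate 2 (0.58), and against cAMP without cAMP replicate 1 (0.48). Sema3f, a ligand of Nrp2 and the class 3 member with the highest level per kb in cAMP and 4OHT, fell in PD+LY against 4OHT from 19.1 and 22.8 CPM to 13.4 and 14.7 (log2 -0.57, SE 0.19, edgeR adjusted p = 0.0434). This call was lost without 4OHT replicate 1 (-0.69) or 2 (-0.43), or PD+LY replicate 1 (-0.51) or 2 (-0.64). Sema3a, Sema3c and Sema3d stayed at 9.73 CPM or less and never passed.

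The class 3 co-receptor Nrp2 was at 35.2 and 29.9 CPM in cAMP, 31.4 and 30.1 in 4OHT, and 21.6 and 14.5 in PD+LY. Both PD+LY libraries were lowest. Nrp2 fell 1.70-fold in PD+LY against 4OHT (log2 -0.77, SE 0.18, edgeR adjusted p = 0.00953) and 1.80-fold against cAMP (-0.85, SE 0.18, edgeR adjusted p = 0.00467). Against 4OHT Nrp2 lost its call without 4OHT replicate 1 (-0.73) or 2 (-0.79), and its value was -0.51 without PD+LY replicate 2. Nrp1, which also binds VEGF, lay between 11.1 and 19.6 CPM and did not pass, at -0.16 (SE 0.20) for PD+LY against 4OHT.

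Plxnb1, the receptor of Sema4d (ENSMUSG00000053646.13, chr9:109095389-109119917, plus strand), was at 50.5 and 56.3 CPM in cAMP, 25.6 and 31.2 in 4OHT, and 20.6 and 17.8 in PD+LY. The groups stepped down without overlap. Plxnb1 passed in all 3 comparisons. It fell by 0.91 on the log2 scale in 4OHT against cAMP (SE 0.14, edgeR adjusted p = 0.00266), by 0.56 in PD+LY against 4OHT (SE 0.14, edgeR adjusted p = 0.0157) and by 1.47 in PD+LY against cAMP (2.78-fold, SE 0.14, edgeR adjusted p = 2.65e-05). The first call was lost without 4OHT replicate 1 (-0.77) and the second without 4OHT replicate 2 (-0.41), while the third held with any library left out. The gene Gm7628 on the opposite strand covers 2.7% of its exon length.

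A stretch before the RefSeq start of Plxnb1 is shown because it holds 2 matches to the ETS core CCGGAA, at 150 and 96 bases before the start (chr9:109095186-109095385 of GRCm38.p6, plus strand). Capitals mark them, the second as read on the opposite strand.
Plxnb1 promoter: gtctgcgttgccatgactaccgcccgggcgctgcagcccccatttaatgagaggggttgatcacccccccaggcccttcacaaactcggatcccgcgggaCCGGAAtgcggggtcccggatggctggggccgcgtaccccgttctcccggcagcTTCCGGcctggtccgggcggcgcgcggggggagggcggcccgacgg

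Plxnd1, the Sema3e receptor, was at 41.6 and 42.9 CPM in cAMP, 49.2 and 50 in 4OHT, and 30.3 and 28.1 in PD+LY. Replicates were close and the groups did not overlap. It fell 1.70-fold in PD+LY against 4OHT (log2 -0.77, SE 0.12, edgeR adjusted p = 0.000793) and 1.45-fold against cAMP (-0.54, SE 0.12, edgeR adjusted p = 0.00544), in both cases with any library left out. Plxnb2, the receptor of Sema4c, was at 234 and 212 CPM in cAMP, 237 and 244 in 4OHT, and 189 and 175 in PD+LY. It fell in PD+LY against 4OHT (log2 -0.40, SE 0.09, edgeR adjusted p = 0.0089) and against cAMP (-0.29, SE 0.09, edgeR adjusted p = 0.0352). The first call was lost without 4OHT replicate 1 (-0.42) or 2 (-0.38). The second held only without PD+LY replicate 1, at -0.22 and -0.35 without cAMP replicate 1 or 2, -0.28 without either 4OHT replicate and -0.24 without PD+LY replicate 2, and it was lost with only the groups compared (adjusted p = 0.0849).

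Plxnc1, the Sema7a receptor (ENSMUSG00000074785.5, chr10:94790866-94944835, minus strand), was low, at 2.83 and 3.51 CPM in cAMP, 2 and 1.92 in 4OHT, and 1.32 and 0.827 in PD+LY. The groups stepped down without overlap. It fell 2.95-fold in PD+LY against cAMP (log2 -1.56, SE 0.37, edgeR adjusted p = 0.00886), a call lost without cAMP replicate 2 (-1.38) or PD+LY replicate 2 (-1.26). Plxnb3 (ENSMUSG00000031385.14, chrX:73757090-73772514, plus strand) had only 14 and 14 counts in cAMP, 12 and 31 in 4OHT, and 6 and 8 in PD+LY. It fell in PD+LY against 4OHT (log2 -1.85, SE 0.60, edgeR adjusted p = 0.0439), but 4OHT replicate 2 alone held most of the 4OHT counts and without it the value was -1.18 (edgeR adjusted p = 0.37). That call was also lost without cAMP replicate 1 (-1.85) or 2 (-1.84), without PD+LY replicate 1 (-1.69) or 2 (-2.03) and with DESeq2 (-1.86, adjusted p = 0.0965). The class A plexins never passed, and Plxna1, the plexin with the highest level per kb of exon in each group, lay between 252 and 299 CPM.

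A list of 14 ligand and receptor pairs, fixed from known binding, sets the levels per kb of exon of partners side by side. Efnb2 went from 6.61 CPM per kb in cAMP to 2.39 in 4OHT and 2.14 in PD+LY, and its receptor Ephb4 from 21.8 to 20.1 and 28.4. Efna1 was at 10.4, 10.9 and 7.28 in the same order of groups, and its receptor Epha2 at 15.7, 18 and 10.4. Efna5 was at 2.15, 1.78 and 1.36 and its receptor Epha3 at 0.154, 0.156 and 0.205, while Efnb1 and Ephb2 kept 4.83 to 6.12 throughout. In PD+LY against cAMP, Efnb2 fell while Ephb4 rose, and Efna1 and Epha2 both fell.

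Sema7a went from 1.92 CPM per kb in cAMP to 3.44 in 4OHT and 0.596 in PD+LY, and Plxnc1 from 0.38 to 0.235 and 0.129. Sema4d was at 7.78, 8.03 and 9.5 beside Plxnb1 at 5.57, 2.96 and 2.01, so that the receptor passed and the ligand did not. Sema3e was at 1.45, 0.714 and 0.603 beside Plxnd1 at 5.79, 6.8 and 4. For the remaining semaphorin pairs, Sema3f stood at 3.46, 4.03 and 2.71 beside Nrp2 at 2.75, 2.6 and 1.53 and Plxna3 at 2.55, 2.5 and 1.92. Sema4c stood at 12.8, 11 and 11.8 beside Plxnb2 at 28.9, 31.1 and 23.6, and Sema6d at 4.82, 3.44 and 3.02 beside Plxna1 at 30.1, 32.5 and 29.4. Sema6a stood at 1.5, 0.584 and 0.58, and Sema3c at 1.19, 0.902 and 1.11, beside Plxna2 at 0.859, 0.974 and 0.899. Sema5a with Plxnb3, and Sema3a with Plxna4 (and Nrp1 as co-receptor at 1.9, 1.61 and 1.45), joined ligands and receptors that were all below 1 CPM per kb in each group.

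Promoters of 47 of the 53 members were in the RefSeq promoter table, and 4 short motifs were searched on both strands in the 250 bases before each start. The sequences of 11 of the 12 DEGs were listed one by one, and Sema6a was left out of that listing. The ETS core CCGGAA, bound by factors downstream of ERK, was in 12% of all 32851 promoters and 13.6% of the 27025 genes with a RefSeq promoter. It was in 6 of the 47 members, which are Ephb2, Ephb6, Plxnb1, Sema3d, Sema4a and Sema4b. The AP-1 element TGANTCA was in 6.75% of promoters and in Sema4c, Sema4d and Sema6b. The CRE core TGACGT was in 6.47% of promoters and in Epha2, Epha4 and Sema3d. The FOXO core TGTTTAC was in 3.17% of promoters and in no member. As shares of genes, the members' 12.8, 6.38, 6.38 and 0% stood beside 13.6, 7.82, 7.29 and 3.54% of the 27025 genes. These letters were thus not more common in the members than in those genes, which were not limited to the genes tested for expression. A match is a description of sequence and not a bound site.

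The genes that carry the plexin signal inward were taken as a list of their own. Of its 36 plexin co-receptors and effectors, 1 was up and 5 were down in 4OHT against cAMP, beside 4.04% up and 4.35% down among all genes. The numbers were 7 up and 3 down for PD+LY against 4OHT, beside 10.7% and 12.1% of all genes, and 5 up and 6 down for PD+LY against cAMP, beside 12.1% and 13.7%. Crmp1, a collapsin response mediator that carries Sema3a signals to the cytoskeleton, was at 32.4 and 34.8 CPM in cAMP, 7.81 and 8.89 in 4OHT, and 3.57 and 2.72 in PD+LY. It fell in each comparison, by 2.01 (SE 0.17, edgeR adjusted p = 6.39e-05), 1.41 (SE 0.20, edgeR adjusted p = 0.000492) and 3.42 on the log2 scale (SE 0.19, edgeR adjusted p = 3.53e-07). Crmp1 is also a neuronal gene, and 10 of the 11 tested neural markers were negative in 4OHT against cAMP (median -0.80), beside 7671 of all 15256 genes. Of these markers 2 passed, both lower, beside 4.35% of all genes. The neural markers moved both ways in PD+LY against 4OHT, as given above. In PD+LY against cAMP 4 fell and 2 rose (median -0.59), beside 13.7% and 12.1% of all genes. The part of neural cells was not tested. Mras, an R-Ras relative that plexins inactivate, rose in PD+LY against cAMP (log2 1.37, SE 0.18, edgeR adjusted p = 0.000173), from 5.6 and 6.58 CPM in cAMP over 10.5 and 10.8 in 4OHT to 16.1 and 15.5. The medians of this list were -0.09, 0.07 and 0.07 in the 3 comparisons, beside 0.00, 0.01 and 0.00 for all genes.

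Of 30 tested Eph effectors, 1 passed in 4OHT against cAMP, a lower one, beside 4.35% of all genes. For PD+LY against 4OHT 2 were up and 8 down, beside 10.7% and 12.1% of all genes. Against cAMP 3 were up and 7 down with the inhibitors, beside 12.1% and 13.7%. Grb7, an adaptor that binds activated receptors, was at 51.3 and 56.3 CPM in cAMP, 30.6 and 28.1 in 4OHT, and 18.6 and 23.5 in PD+LY, and its log2 fold change in PD+LY against cAMP was -1.35 (SE 0.14, edgeR adjusted p = 4.37e-05). Ngef and Arhgef15, exchange factors that act downstream of Ephs, fell in PD+LY against 4OHT. Ngef was at 5.47 and 4.83 CPM in 4OHT and 2.9 and 1.56 in PD+LY (log2 -1.21, SE 0.32, edgeR adjusted p = 0.0177), and Arhgef15 was at 5.87 and 4.94 CPM in 4OHT and 1.17 and 3.31 in PD+LY (-1.26, SE 0.39, edgeR adjusted p = 0.0377). Ngef lost its call without 4OHT replicate 1 (-1.11), 4OHT replicate 2 (-1.29) or PD+LY replicate 2 (-0.82), and Arhgef15 without 4OHT replicate 1 (-1.13), 4OHT replicate 2 (-1.38) or PD+LY replicate 1 (-0.70), whereas the calls of Crmp1, Mras and Grb7 given here held with any library left out. With each library left out in turn, the log2 fold change in PD+LY against 4OHT ranged from -2.19 to -0.70 for Arhgef15. For Ngef it ranged from -1.72 to -0.82. The medians of the Eph effectors were -0.04, -0.10 and -0.11.

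**Figure D4:**
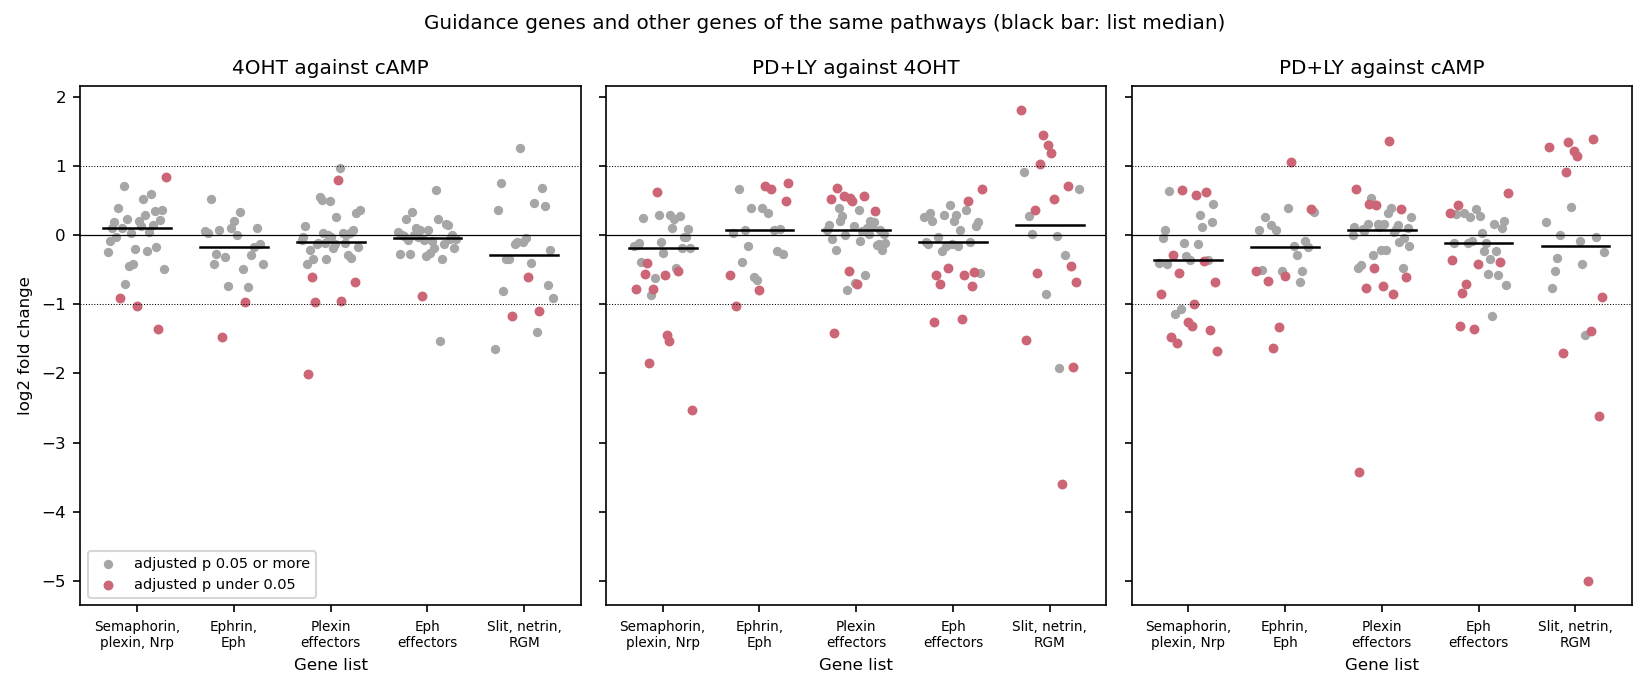
Each point is the log2 fold change of a tested gene, grouped as semaphorins with plexins and neuropilins, ephrins with Ephs, plexin effectors, Eph effectors and slit, netrin and RGM genes, in the 3 comparisons, with red for an adjusted p under 0.05 and a black bar at the list median. Crmp1 is the lowest point of the plexin effectors in each panel, and the slit, netrin and RGM genes spread from -5.01 to 1.40 in the right panel. The lowest of them there is Robo4 (SE 0.85), with only 29 and 37 counts in cAMP and 2 and 0 in PD+LY.

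As a reading of the inhibitors themselves, 11 of 12 ERK output genes fell in PD+LY against 4OHT, beside 12.1% of all genes. Spry4, a feedback inhibitor, was at 21.1 and 20.1 CPM in 4OHT and 0.255 and 0.243 in PD+LY, and Etv4, an ETS factor, at 36.8 and 36.6 and at 0.611 and 0.389. In 4OHT against cAMP 1 of these 12 rose and 2 fell, beside 4.04% and 4.35% of all genes. Of the 52 tested members 8 were highest in both 4OHT libraries and lowest in both PD+LY libraries, an order that 5.63% of all genes tested had. They are Sema7a, Sema4a, Sema4g, Efna3, Epha2, Ephb3, Plxnb2 and Plxnd1. Of these Sema7a alone passed between 4OHT and cAMP, and all but Ephb3 passed between PD+LY and 4OHT. The order itself places every 4OHT library above every PD+LY library, so those passes follow in part from it and are not separate support. Thyroid markers, by contrast, had 6 of 11 members up in PD+LY against 4OHT, beside 10.7% of all genes, and 3 of 11 down in 4OHT against cAMP, beside 4.35%. Of those 3, Tg (log2 -1.10, edgeR adjusted p = 0.0304) lost its call with DESeq2 (adjusted p = 0.186) and without cAMP replicate 1 (-0.76), 4OHT replicate 1 (-0.89) or 4OHT replicate 2 (-1.33). These thyroid, mesenchymal and neural values moved with the same comparisons, and their part in the guidance gene results was not tested.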

How the data were processed

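RNA-seq was analysed in 6 libraries, 2 each of the cAMP, 4OHT and PD+LY groups. The authors trimmed paired-end reads with Trimmomatic, aligned them to mm10 using HISAT2, and used HTSeq with its unstranded setting. The deposited values are raw counts per gene symbol. The annotation behind the counting is not given in the sources used here. The kit marks strand but the counting ignored it, so reads of overlapping genes cannot be told apart, and 14 of the 53 members overlap exons of another gene.

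The analysis used R 4.3.3. In edgeR 4.0.16, filterByExpr (minimum count 10, minimum total 15) kept 15256 genes and removed 9983, and TMM gave factors of 0.99 to 1.01. All 6 libraries entered a single quasi-likelihood fit by group, with Benjamini-Hochberg adjustment over every gene tested and the thresholds of the study, an adjusted p under 0.05 and 2-fold. The SE given with edgeR values was derived from its F test, as the absolute log2 fold change over the square root of F. The study used DESeq2, which was an alternative here (version 1.42.0). Further alternatives were RLE size factors, dropping the filter, requiring 10 counts in each library, fitting only the groups compared, a replicate block, no fold threshold, and each library left out in turn. The procedure was tested on simulated data. The common biological coefficient of variation was 0.105, and replicates differed by more than counting error (chi-square per degree of freedom of 8.5 for cAMP, 4.63 for 4OHT, 18.5 for PD+LY).

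CPM use the TMM library sizes, and levels between genes are CPM per kb of merged exons in GENCODE M21 (GRCm38), which held models for all 53 members. Promoters are those of RefSeq (GRCm38.p6). The text names every member that was a DEG with its value in each library, every other member that passed, the most abundant member of each role, the members under the filter, 14 ligand and receptor pairs, and in each further list at most the 3 DEGs with the largest fold change per comparison and a mean of at least 50 counts. Members that never passed are named by role, and Pax6, Nes, Pdgfrb and Twist1 were named after their values were seen. The members, lists, pairs and motifs were chosen with earlier results of these data known, so no count over them is independent support.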

Additional observations from a re-analysis of the deposited data

How the results depend on the processing

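The limits of these results come mostly from having 2 libraries per group. The number of DEGs among the guidance genes was 3 between 4OHT and cAMP, 5 between PD+LY and 4OHT, and 10 between PD+LY and cAMP. Leaving out each library in turn gave 1 to 3, 3 to 5 and 7 to 12, with 1 in the first without 4OHT replicate 1 and 3 in the second without 4OHT replicate 2. The lone library left in a group is then assumed to vary like the others. With the adjusted p alone and no fold threshold the counts were 6, 18 and 22, and the other alternatives gave 3, 4 to 5 and 9 to 10. With a replicate block the counts were 3, 5 and 10, and Epha1 passed between 4OHT and cAMP (adjusted p = 0.0192) and between PD+LY and 4OHT (adjusted p = 0.0427). No source says whether the replicate numbers pair libraries, and they were not treated as pairs. Deviations of same-numbered libraries from their group means correlated at 0.0718 between cAMP and 4OHT, 0.207 between cAMP and PD+LY and 0.0586 between 4OHT and PD+LY over 15256 genes.

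Over the 46 log2 fold changes that passed, 265 of 275 values under the alternatives other than leaving out a library kept direction and call and 10 lost the call. With a library left out, 200 of 276 kept the call and 76 lost it, and none of these changed sign. Sema6a, which had not passed for PD+LY against 4OHT (-0.02), ranged from -0.31 without 4OHT replicate 1 to 0.38 without 4OHT replicate 2, with 0.17 without PD+LY replicate 2. The cause of these changes was not tested.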

Other observations

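Slits, netrins and repulsive guidance molecules, the other families known from axon guidance, were read from a list of 25 genes, of which 22 were tested and Ntng1, Ntng2 and Unc5d were under the filter. In 4OHT against cAMP 3 fell and none rose at an adjusted p under 0.05, beside 4.35% and 4.04% of all genes. In PD+LY against 4OHT 8 rose and 6 fell, beside 10.7% and 12.1%, and 8 were DEGs, beside 7.26% of all genes. The number of DEGs was lower with DESeq2, at 6, and lower again when either 4OHT replicate was left out. In PD+LY against cAMP 6 rose and 5 fell, beside 12.1% and 13.7%, and 9 were DEGs, beside 9.24% of all genes. Ntn1, a secreted netrin, was at 28.1 and 26.4 CPM in cAMP, 11.1 and 13.1 in 4OHT, and 8.96 and 7.68 in PD+LY, and fell in 4OHT against cAMP (log2 -1.17, SE 0.16, edgeR adjusted p = 0.0013) and in PD+LY against cAMP (-1.71, SE 0.16, edgeR adjusted p = 2.39e-05). Both cAMP libraries lay above the other 4. Unc5a, a netrin receptor, was at 5.53 and 7.65 CPM in cAMP, 3.27 and 4.72 in 4OHT, and 1.02 and 1.12 in PD+LY, and fell in PD+LY against 4OHT (log2 -1.90, SE 0.33, edgeR adjusted p = 0.00189). Slit1, a secreted ligand of Robo receptors, fell in 4OHT against cAMP from 5.35 and 4.19 CPM to 1.87 and 2.52 (log2 -1.10, SE 0.30, edgeR adjusted p = 0.0451), a call lost without cAMP replicate 1 (-0.92) or 2 (-1.27), without 4OHT replicate 1 (-0.90) or 2 (-1.34) and with DESeq2 (-1.11).

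The genes Rgma and Rgmb, membrane-anchored ligands of neogenin and BMP co-receptors, had overlapping or nearly equal values in cAMP and 4OHT and rose with the inhibitors. Rgmb was at 20.7 and 20.3 CPM in cAMP, 20.2 and 19.6 in 4OHT, and 46.7 and 44.4 in PD+LY (log2 1.19, SE 0.12, edgeR adjusted p = 7.12e-05 against 4OHT). Rgma was at 10.1 and 11.9 CPM in cAMP, 11.3 and 9.33 in 4OHT, and 22.5 and 28.8 in PD+LY (log2 1.31, SE 0.18, edgeR adjusted p = 0.000473 against 4OHT). Slit2, another Robo ligand, was at 18.7 and 14.8 CPM in cAMP, 30.2 and 23.5 in 4OHT, and 51.5 and 36.4 in PD+LY, and rose in PD+LY against cAMP (log2 1.40, SE 0.19, edgeR adjusted p = 0.000291). The mesenchymal marker sum given in the report had the same order of groups, although Pdgfrb and Twist1 on that list fell in PD+LY against 4OHT, and the part of mesenchymal cells was not tested. Apart from Slit1, the calls given here for Ntn1, Unc5a, Rgma, Rgmb and Slit2 held with any library left out.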
